A study of Mus musculus with 16 samples.

Results

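The levels of 9 genes of ribosome production and cell growth were followed across 6 groups of mouse thymocytes. The members were Ppan, Bop1, Ncl, Npm1, Fbl, Dkc1, Mettl1, Srm, Odc1 and Pprc1, and their probe sets were taken wherever the array's annotation gave one of these symbols and no other gene. That gave 10 probe sets for 9 of the 10 genes, out of 12422 probe sets tested. Bop1 had 2 probe sets. For the tenth gene, Dkc1, which encodes the pseudouridine synthase dyskerin, no probe set named it alone and it was not analysed here.

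Ribosomes are built in the nucleolus, where RNA polymerase I makes a long precursor of the ribosomal RNAs that is then cut, modified and packed with ribosomal proteins. A cell that leaves rest and starts to grow raises this output together with tRNA modification and the synthesis of polyamines, small cations that bind RNA. In T cells, signals through the antigen receptor are a known trigger of such growth, and many of the genes are known targets of the transcription factor MYC.

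The series profiled double-positive thymocytes, the stage that carries both CD4 and CD8, from fetal thymus lobes cultured as whole organs. BDC2.5 mice carry the rearranged T cell receptor genes of a CD4 T cell clone that attacks pancreatic islets. They were used on the NOD background, which develops autoimmune diabetes, and on B6g7, a C57BL/6 background with the NOD major histocompatibility haplotype. The groups were BDC2.5 NOD cells at 16 h of peptide (n = 3), BDC2.5 NOD cells without peptide (n = 3), wild-type NOD cells without the transgene (n = 2), and the same 3 kinds of cells from B6g7 (n = 3, 3 and 2). The peptide and its dose are not named, it is not stated whether wild-type lobes received it, and no age, pooling of lobes or way of isolating the cells is given. The arrays of a group are not stated to come from separate animals, so the p-values may measure technical spread only.

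Each probe set had 1 intensity per array on a linear scale, and array medians lay between 54.7 and 59.1. The 8 markers taken for the labelled stage ranged widely. Their median intensity over the 16 arrays was 2700 for Dntt, 2470 for Cd8a, 1520 for Rag1 and 1170 for Cd8b1. Cd3e was at 266, Cd4 at 240, Ptcra at 186 and Rag2 at 169. A set of 6 arrays stood apart from the other 10 in the control probe sets that read the 3′ and 5′ ends of the beta-actin transcript. There was 1 in each group, the array numbered 3 in the BDC2.5 groups and that numbered 2 in wild type. Their log2 difference between the 3′ and 5′ ends of beta-actin was 1.69 ± 0.25, against 2.67 ± 0.32 on the others (SD, n = 6 and 10), and they are called the arrays of higher 5′ signal. For the second control, Gapdh, the difference was 1.94 ± 0.28 on these arrays and 2.585 ± 0.28 on the others. Its values overlapped, at 1.519 to 2.319 and 2.147 to 2.968, so Gapdh alone did not separate the sets. The set of 6 arrays was known from earlier results of these data, and results are given with and without them where they matter.

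The promoters of 4 members whose array with peptide was the higher one in all 6 same-numbered pairs are shown here. Npm1 was also higher in all 6 pairs, but no promoter window of it was at hand. Those shown are RefSeq sequences of build GRCm38.p6, all on the plus strand, and run over the 100 bases before the transcript start that the RefSeq table gives: Ppan at chr9:20888075-20888174, Mettl1 at chr10:127041832-127041931, Odc1 at chr12:17544773-17544872 and Pprc1 at chr19:46056439-46056538. The RefSeq gene spans of Mettl1, Odc1 and Pprc1 begin earlier, at chr10:127041549, chr12:17544808 and chr19:46056526. The Mettl1 window therefore lies wholly inside its gene span, and those of Odc1 and Pprc1 in part.
Ppan: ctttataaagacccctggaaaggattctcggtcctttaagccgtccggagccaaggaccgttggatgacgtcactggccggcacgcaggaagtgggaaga
Mettl1: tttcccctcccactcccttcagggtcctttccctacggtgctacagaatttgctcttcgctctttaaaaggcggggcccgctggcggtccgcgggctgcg
Odc1: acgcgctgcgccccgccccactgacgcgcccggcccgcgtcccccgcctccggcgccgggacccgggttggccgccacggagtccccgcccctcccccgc
Pprc1: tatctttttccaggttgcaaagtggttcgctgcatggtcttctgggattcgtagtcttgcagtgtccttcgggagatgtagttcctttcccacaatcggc

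Windows from 250 bases before the start to 50 after it were at hand for 6 of the 10 genes: Ncl, Ppan, Mettl1, Odc1, Pprc1 and Dkc1. They were searched on both strands for CACGTG, the E-box that MYC and MAX bind, and for CCGGAAG, the core that ETS factors such as GABP bind. The letters of these motifs do not overlap in these windows. The E-box was in 1 of the 6 windows, that of Mettl1, and in 7.15% of all 32851 windows of this length. The ETS core was also in 1 of the 6, that of Ppan, and in 8.86% of all windows. Both lie just after the start, at chr9:20888182-20888211 for Ppan and chr10:127041950-127041979 for Mettl1, with the motif in capitals.
Ppan, after the start: gccgcgtggcaCCGGAAGttggccacgtaa
Mettl1, after the start: agctcggctctcCACGTGgactgcgtggca
None of the 6 windows held either motif before the start. A match describes these letters and is not evidence of binding.

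The peptide response, 16 h of peptide minus no peptide, asks how these genes differed between cells with and without peptide in each strain. In NOD cells 7 of the 9 genes had a higher mean with peptide, and the median log2 difference over the 9 was 0.29. The median over all probe sets was -0.025, and 42% of all probe sets had a difference above 0. In B6g7 cells 7 of 9 were also higher, with a median of 0.64, against -0.005 over all probe sets and 48% above 0. Without the arrays of higher 5′ signal the median over the members was 0.14 in NOD, with 8 of 9 higher. In B6g7 it was then 0.48, with 7 of 9 higher. No member passed the test in either strain. Limma at an adjusted p under 0.05 called 0 probe sets of the whole array in NOD, a share of 0%, and 1 in B6g7, a share of 0.00805%. At an unadjusted p under 0.05 the members numbered 2 of 9 in NOD (207 probe sets of the array) and 6 of 9 in B6g7 (422 probe sets). In bulk RNA of this kind, fewer cells of a type and less RNA per cell cannot be told apart.

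Separation of the arrays gave a second reading of the same values. The members were chosen with earlier results of these data known, so shares above those of the array are a description and not a test. With peptide, 2 of the 9 genes, Mettl1 and Pprc1, lay above all arrays without it in NOD, and the share of all probe sets that did so was 2.33%. In B6g7 these were 6 of 9, namely Ppan, Bop1 by its brighter probe set only, Mettl1, Srm, Odc1 and Pprc1, against 3.48% of all probe sets. No member lay below in either strain, where 3.2% of all probe sets did so in NOD and 3.03% in B6g7. Over both strains together, 8 of 9 genes had a mean response above 0, as did 42.4% of all probe sets. The median mean response was 0.45 over the members and -0.02 over all probe sets. Without the arrays of higher 5′ signal it was 0.31 over the members and -0.01 over all probe sets.

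**Figure D1:**
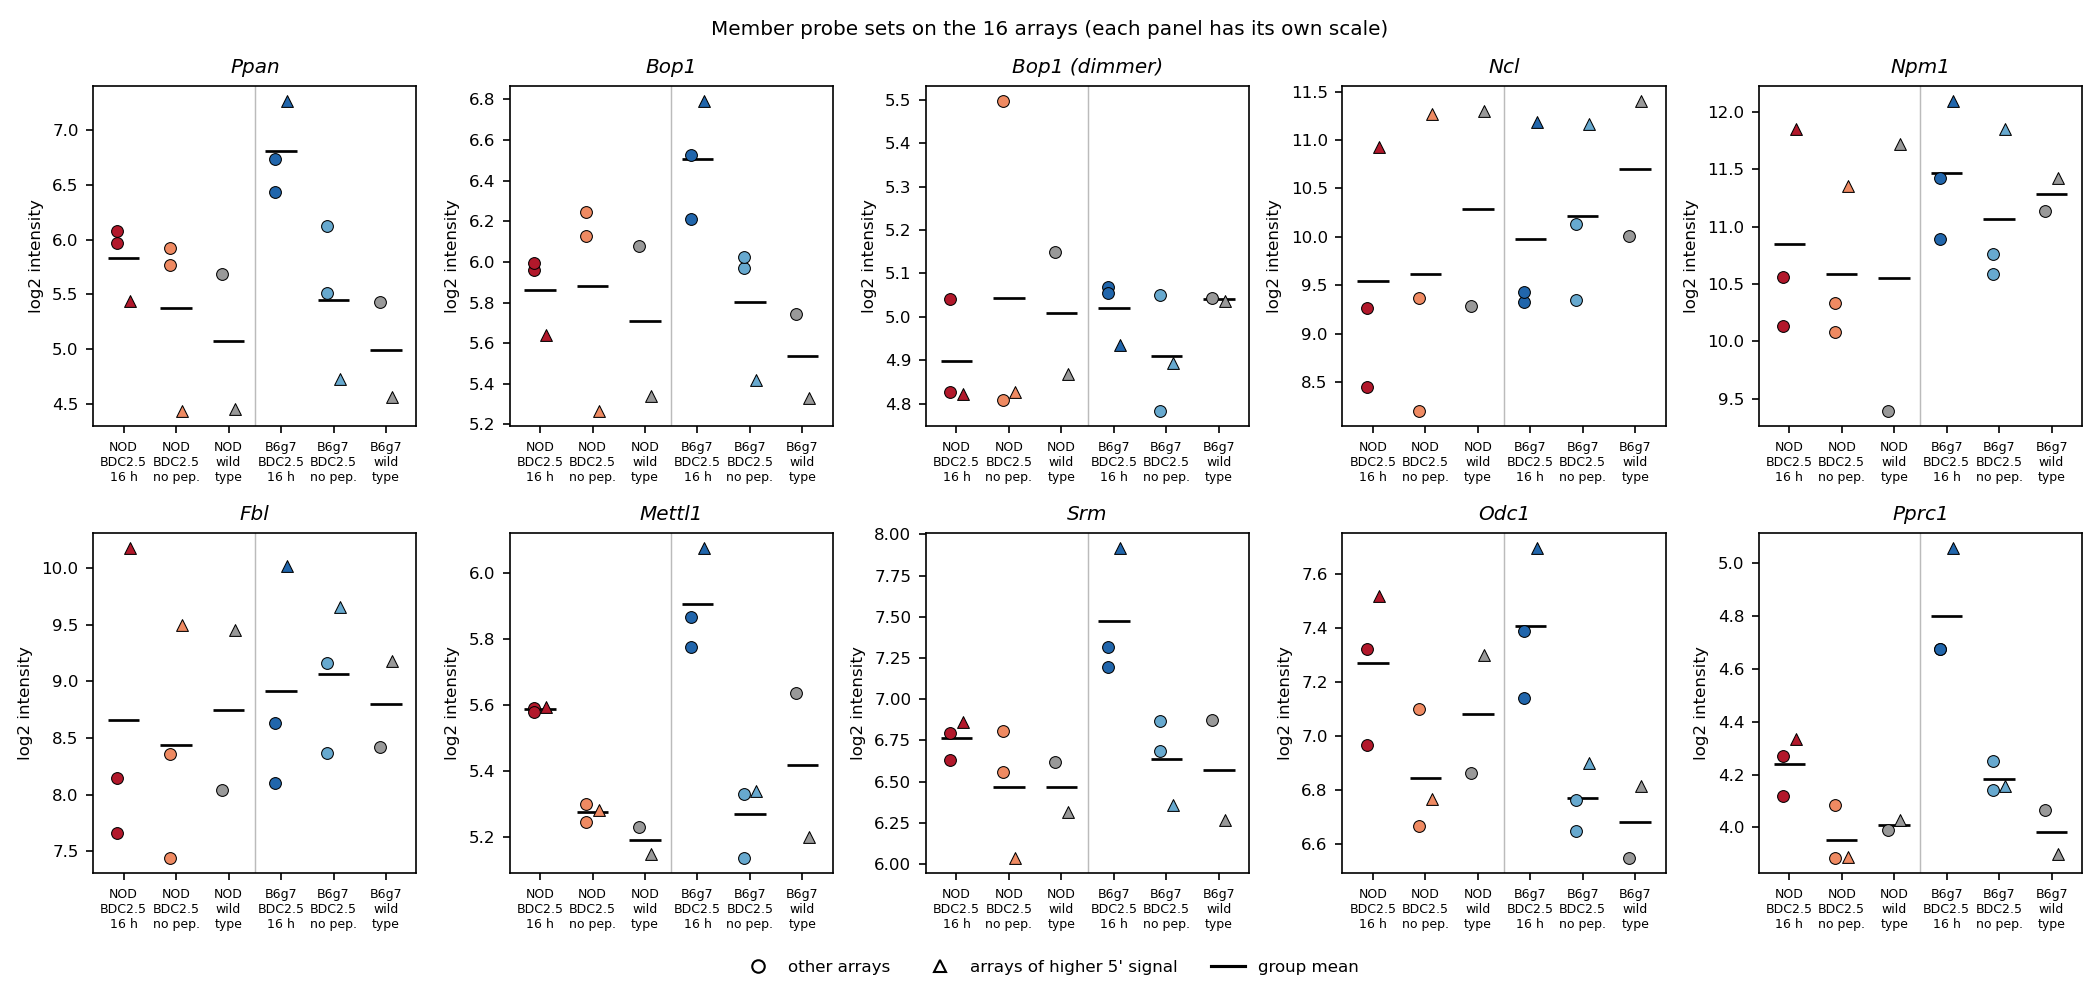
Log2 intensity of each member probe set on the 16 arrays, by group, with the group mean as a bar and the arrays of higher 5′ signal as triangles; each panel has its own scale. In B6g7, the 3 arrays at 16 h of peptide lie above the 3 without it for Ppan, the brighter Bop1 probe set, Mettl1, Srm, Odc1 and Pprc1, while Ncl, Npm1 and Fbl separate by array and not by group.

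Ppan, whose product joins the particles in which the large-subunit ribosomal RNA matures, had the largest response in size. Its intensity in NOD cells was 62.8, 67.5 and 43.5 at 16 h of peptide, 60.9, 54.5 and 21.6 without peptide, and 51.6 and 21.9 in wild-type cells. The peptide arrays overlapped those without peptide in this strain, since one NOD array at 16 h lay below 2 without peptide. In B6g7 cells it was 107, 86.5 and 154 at 16 h, 69.7, 45.7 and 26.4 without peptide, and 43.1 and 23.6 in wild-type cells. All 3 B6g7 peptide arrays exceeded every other Ppan value of the series. The log2 response was 0.45 ± 0.45 (SE) in NOD and 1.36 ± 0.45 in B6g7, a fold of 1.37 and 2.57, and neither passed the test (limma adjusted p = 1 for both). Without the arrays of higher 5′ signal the response was 0.18 in NOD and 0.77 in B6g7. Leaving out the NOD array without peptide numbered 3 took the NOD value to -0.02.

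Bop1 encodes a partner of the same pathway, a scaffold of the complex that processes the large-subunit RNA in the nucleolus. Its brighter probe set read 62.2, 63.8 and 49.8 in NOD cells at 16 h and 69.9, 75.9 and 38.5 without peptide, values that overlapped. In B6g7 it read 92.1, 74.0 and 111 at 16 h and 62.6, 65.1 and 42.8 without peptide, with no overlap. The log2 response was -0.02 ± 0.28 in NOD and 0.70 ± 0.28 in B6g7 (limma adjusted p = 1 for both). Without the arrays of higher 5′ signal it was -0.21 in NOD and 0.37 in B6g7. The other Bop1 probe set did not show the separation in B6g7. It stayed between 27.5 and 45.1 on every array, and its response was -0.15 ± 0.16 in NOD and 0.11 ± 0.16 in B6g7. The suffix of its name marks a probe set with fewer probes than the design required.

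Nucleolin (Ncl), nucleophosmin (Npm1) and fibrillarin (Fbl) are abundant proteins of the nucleolus: Ncl binds the ribosomal RNA precursor, Npm1 works as a chaperone of ribosome assembly, and Fbl methylates ribosomal RNA guided by small nucleolar RNAs. Ncl was read at 615, 349 and 1948 in NOD cells at 16 h of peptide and at 294, 662 and 2474 without peptide. In B6g7 it was read at 642, 689 and 2327 at 16 h and at 651, 1126 and 2301 without peptide. Within each of these groups the array numbered 3 was the highest, at least 2 times the other 2 arrays, so that the spread inside a group exceeded any difference between groups. The log2 response of Ncl was -0.07 ± 0.86 in NOD and -0.24 ± 0.86 in B6g7, and the 95% intervals ran from 0.263-fold to 3.46-fold and from 0.234-fold to 3.08-fold.

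Npm1 showed the same split between arrays, with a small difference in one direction. Its intensity was 1510.0, 1125 and 3695 in NOD cells at 16 h and 1291, 1085 and 2612 without peptide. In B6g7 it was 1899, 2754 and 4362 at 16 h and 1533, 1734 and 3693 without peptide. The groups overlapped in both strains. The array with peptide was the higher one in all 6 same-numbered pairs, by 0.05 to 0.67 on the log2 scale. The share of all probe sets higher in all 6 pairs was not computed, so this is a description, here and for the members below. The fitted response was 0.26 ± 0.60 in NOD and 0.41 ± 0.60 in B6g7. Fbl, with 284, 203 and 1158 at 16 h and 174, 328 and 725 without peptide in NOD cells, had a response of 0.23 ± 0.71. In B6g7, Fbl read 275, 397 and 1041 at 16 h and 331, 573 and 806 without peptide, a response of -0.14 ± 0.71. The 95% intervals of this fit, which does not use the array numbers as pairs, hold both a doubling and a halving of Npm1 in NOD and of Fbl and Ncl in either strain.

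Mettl1, the catalytic subunit of the tRNA 7-methylguanosine methyltransferase, had close replicates, above all in NOD cells at 16 h. It read 48.2, 47.8 and 48.4 in NOD cells at 16 h of peptide, 38.0, 39.4 and 38.9 without peptide, and 37.5 and 35.5 in wild-type cells. In B6g7 cells it read 54.8, 58.4 and 67.4 at 16 h, 40.3, 35.2 and 40.5 without peptide, and 49.7 and 36.8 in wild-type cells. The peptide arrays lay above those without peptide in both strains. The log2 response was 0.31 ± 0.12 in NOD (limma adjusted p = 1) and 0.64 ± 0.12 in B6g7 (limma adjusted p = 0.203). It was between 0.28 and 0.34 in the 3 same-numbered NOD pairs and between 0.44 and 0.73 in the 3 B6g7 pairs. The mean response of the strains was 0.47 ± 0.08, a fold of 1.39 (limma adjusted p = 0.104).

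Spermidine synthase (Srm) and ornithine decarboxylase (Odc1) are enzymes of polyamine synthesis, and Odc1 catalyses its first committed step. Srm was read at 111, 99.2 and 116 in NOD cells at 16 h and at 112, 94.1 and 65.8 without peptide. Its B6g7 values were 159.6, 147 and 242 at 16 h and 117, 103 and 82.1 without peptide. The NOD groups overlapped and the B6g7 groups did not. The log2 response of Srm was 0.29 ± 0.24 in NOD and 0.84 ± 0.24 in B6g7 (limma adjusted p = 1 for both). Without the arrays of higher 5′ signal it was 0.03 in NOD and 0.48 in B6g7. The name of the Srm probe set carries the suffix for probes shared with a sequence family, so related transcripts may contribute.

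Odc1 differed less between the strains. It was read at 125, 160.0 and 183 in NOD cells at 16 h, 102, 137 and 109 without peptide, and 116 and 157 in wild-type cells. In B6g7 it was read at 167, 141 and 207 at 16 h, 109, 100.3 and 119.5 without peptide, and 93.7 and 113 in wild-type cells. One NOD array at 16 h lay below one without peptide, and the B6g7 groups were separate. The log2 response was 0.42 ± 0.20 in NOD and 0.64 ± 0.20 in B6g7 (limma adjusted p = 1 for both), and it was positive in all 6 same-numbered pairs, from 0.22 to 0.79.

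Pprc1 encodes PRC, a coactivator related to PGC-1 that responds to serum growth signals and acts with nuclear respiratory factors. Its probe set was among the dim ones, at the 19.3 percentile of all probe sets by mean log2 intensity over the 16 arrays. At such levels a background signal would take a larger part of the reading. On single arrays its percentile ran from 10.7 to 36.6, the highest on the B6g7 array at 16 h numbered 3. The probe set read 17.4, 19.3 and 20.2 in NOD cells at 16 h of peptide, 14.8, 16.9 and 14.8 without peptide, and 15.9 and 16.3 in wild-type cells. In B6g7 cells it read 25.5, 25.5 and 33.3 at 16 h, 17.7, 19.0 and 17.8 without peptide, and 16.8 and 14.9 in wild-type cells. Peptide arrays lay above the others in both strains. The log2 response was 0.29 ± 0.10 in NOD (limma adjusted p = 1) and 0.62 ± 0.10 in B6g7 (limma adjusted p = 0.107), and all 6 same-numbered pairs were positive, from 0.19 to 0.90.

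For the mean response of both strains, limma called 3 probe sets of the array, 0.0242%, and 0 of the members, while 5 of 9 members and 445 probe sets of the array had an unadjusted p under 0.05. Pprc1 came nearest, at 0.45 ± 0.07 (limma adjusted p = 0.0643), followed by Mettl1, and Odc1 was at 0.53 ± 0.14 (limma adjusted p = 0.653). The array number as a replicate block in the 12 BDC2.5 arrays was chosen from correlations of same-numbered arrays in these same data, and no label names such a block. With this block Mettl1 passed (limma adjusted p = 0.0428) and Pprc1 did not (0.0609), and limma called 7 probe sets, 0.0564% of the array. A block over all 16 arrays also ties the wild-type arrays by number, which were not taken as pairs, and there Mettl1 and Pprc1 both passed (limma adjusted p = 0.0489 for each), again with 7 probe sets called, 0.0564%. With a block of its own in each strain, neither passed (limma adjusted p = 0.125 for Mettl1 and 0.158 for Pprc1). Without the arrays of higher 5′ signal the mean response was 0.45 for Mettl1 (limma adjusted p = 1) and 0.34 for Pprc1 (limma adjusted p = 0.848). The other mean responses were 0.91 ± 0.32 for Ppan, 0.57 ± 0.17 for Srm, 0.34 ± 0.19 for Bop1, 0.33 ± 0.42 for Npm1, 0.04 ± 0.50 for Fbl and -0.15 ± 0.61 for Ncl (limma adjusted p = 0.998 for each).

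**Figure D2:**
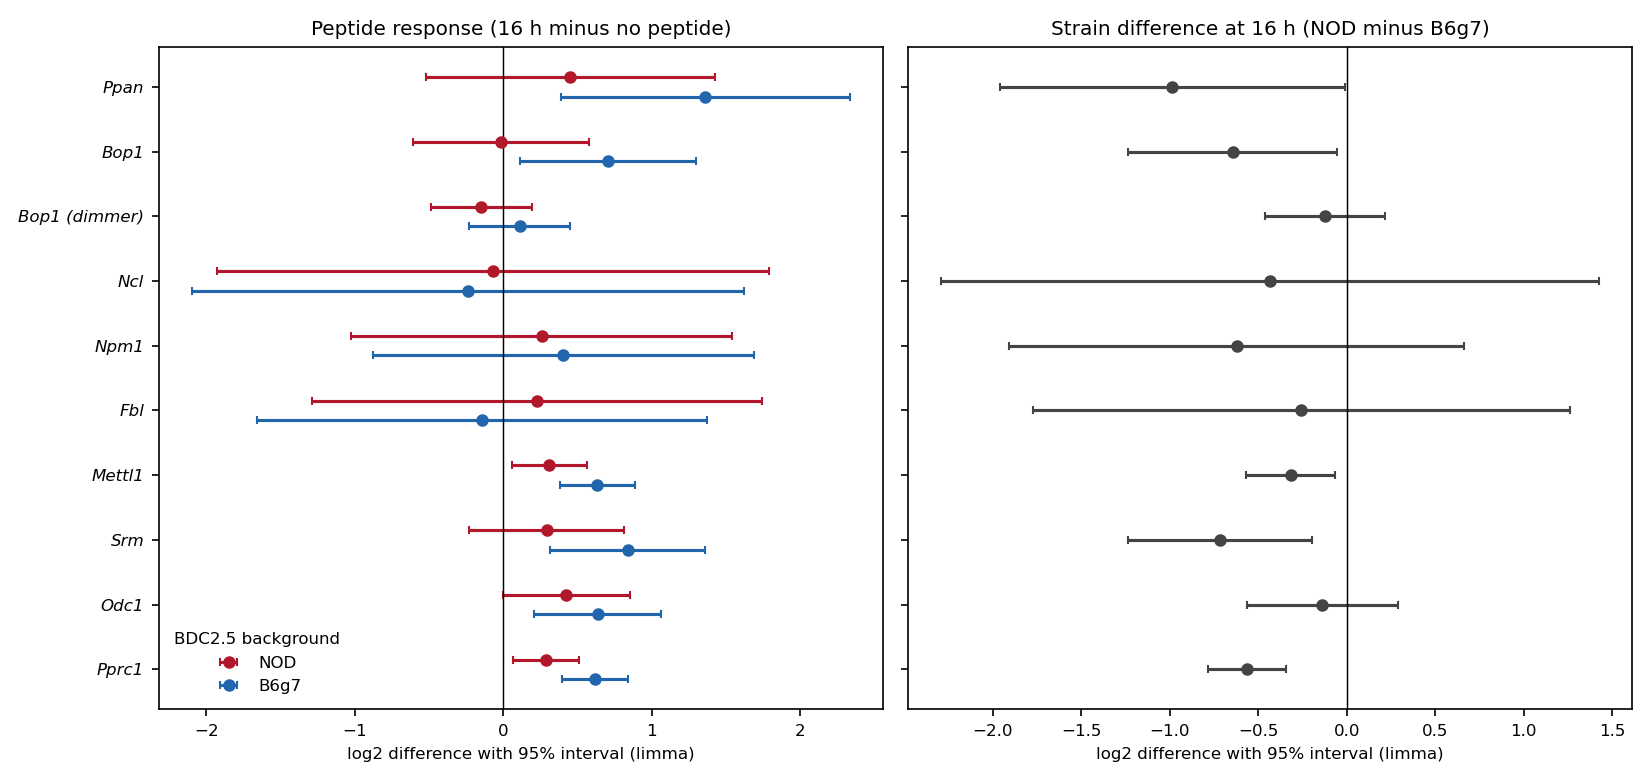
Left, log2 peptide response of each member probe set (16 h minus no peptide) in NOD and in B6g7; right, log2 strain difference at 16 h (NOD minus B6g7); points are fitted values and bars are 95% intervals from limma. The intervals of Ncl, Npm1 and Fbl are the widest, those of Mettl1 and Pprc1 the narrowest, and every point on the right is below 0.

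The strain difference at 16 h of peptide, NOD minus B6g7, asks whether the cells with peptide differed between the strains. All 9 genes had a lower mean in NOD, where 48.2% of all probe sets were lower, and the median log2 difference was -0.56 over the members and 0.01 over all probe sets. In 5 of the 9, Ppan, Bop1, Mettl1, Srm and Pprc1, every NOD array lay below every B6g7 array, as for 5.39% of all probe sets. For Bop1 this held for the brighter probe set only, and the other overlapped, at -0.12 ± 0.16. No member lay above, where 6.45% of all probe sets did. One member was called, as were 61 probe sets of the array, 0.491%. This was Pprc1, lower in NOD by a log2 difference of -0.56 ± 0.10, a ratio of 0.678 (limma adjusted p = 0.0269). At an unadjusted p under 0.05 there were 5 of 9 members and 705 probe sets of the array.

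The Pprc1 call was not firm. It was kept with the replicate block in the 12 BDC2.5 arrays (limma adjusted p = 0.0185) and not kept without the arrays of higher 5′ signal, where the difference was -0.48 (limma adjusted p = 0.135), nor when any 1 NOD array at 16 h or the B6g7 array at 16 h numbered 3 was left out (limma adjusted p from 0.0628 to 0.163). The others did not pass. Srm differed by -0.72 ± 0.24 (limma adjusted p = 0.542), Mettl1 by -0.32 ± 0.12 (0.648), Bop1 by -0.64 ± 0.28 (0.796) and Ppan by -0.98 ± 0.45 (0.866). Npm1, Ncl, Fbl and Odc1 differed by -0.62 ± 0.60, -0.43 ± 0.86, -0.26 ± 0.71 and -0.14 ± 0.20 (limma adjusted p = 1 for each). Without the arrays of higher 5′ signal all 9 genes were still lower in NOD, with a median of -0.48.

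The same comparison of the strains was made without peptide. The median difference over the members was -0.17 (NOD minus B6g7), 3 genes were higher and 6 lower in NOD, where 60.4% of all probe sets were higher, and 0 members passed, against 33 probe sets of the array, 0.266%. One member, Pprc1, and 428 probe sets of the array had an unadjusted p under 0.05. The groups did not overlap for 1 of the 9 members, also Pprc1, and for 5.6% of all probe sets. Its NOD arrays lay below those of B6g7, with a difference of -0.23 ± 0.10 (limma adjusted p = 1). Ncl and Fbl differed by -0.60 ± 0.86 and -0.63 ± 0.71, each a larger fitted value than at 16 h. In wild-type cells the median was -0.06, with 4 genes higher and 5 lower in NOD, and 0 members passed or had an unadjusted p under 0.05. Limma called 11 probe sets of the array there, 0.0886%. Odc1 was the one member whose wild-type NOD arrays, 116 and 157, both lay above those of wild-type B6g7, 93.7 and 113, with a difference of 0.40 ± 0.24 (limma adjusted p = 1). The wild-type groups of 2 arrays each did not overlap for 20.9% of all probe sets, so 1 of 9 members is not above that share.

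The test of whether the peptide response itself differed between strains is the difference of responses, NOD minus B6g7. Of the 9 genes, 7 were below 0, as were 56.3% of all probe sets, and the median was -0.32 over the members and -0.025 over all probe sets. Limma called 0 probe sets of the array, a share of 0%, while 1 member and 147 probe sets had an unadjusted p under 0.05. That member was Pprc1, at -0.33 ± 0.15. Ppan was at -0.91 ± 0.64, Bop1 at -0.72 ± 0.39, Srm at -0.55 ± 0.34, Mettl1 at -0.32 ± 0.17, Odc1 at -0.21 ± 0.28 and Npm1 at -0.15 ± 0.84, while Ncl and Fbl were above 0, at 0.17 ± 1.22 and 0.37 ± 0.997 (limma adjusted p = 1 for each). The smaller responses in NOD were therefore not shown to differ from those in B6g7. The strain difference at 16 h and the B6g7 peptide response share the 3 B6g7 arrays at 16 h. On these arrays Ppan, Bop1 by its brighter probe set, Npm1, Mettl1, Srm, Odc1 and Pprc1 had their highest group mean.

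The transgene difference, BDC2.5 cells without peptide minus wild-type cells, compares cells with and without the rearranged receptor genes. The median over the members was 0.00 in NOD, with 4 genes higher and 5 lower, and 0.09 in B6g7, with 6 higher and 3 lower. No member passed or had an unadjusted p under 0.05 in either strain, where limma called 7 probe sets in NOD, 0.0564%, and 10 in B6g7, 0.0805%. Ncl differed by -0.68 ± 0.97 in NOD and -0.49 ± 0.97 in B6g7, a ratio of 0.626 and 0.714, and Ppan by 0.31 ± 0.51 in NOD and 0.46 ± 0.51 in B6g7 (limma adjusted p = 0.999 for both in NOD and 1 for both in B6g7). By mean level, the 3 B6g7 groups ran, highest first, from peptide to no peptide to wild type for Ppan, Bop1, Srm, Odc1 and Pprc1. The lower 2 groups overlapped for all of these but Pprc1, whose 3 arrays without peptide all lay above both wild-type arrays, by 0.20 ± 0.12 (limma adjusted p = 1). It was 1 of 9 members without overlap in B6g7, where 11.1% of all probe sets had none. In NOD the 1 member was Mettl1, higher without peptide than in wild type by 0.09 ± 0.13 (limma adjusted p = 0.999), and 8.71% of all probe sets had no overlap there.

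**Figure D3:**
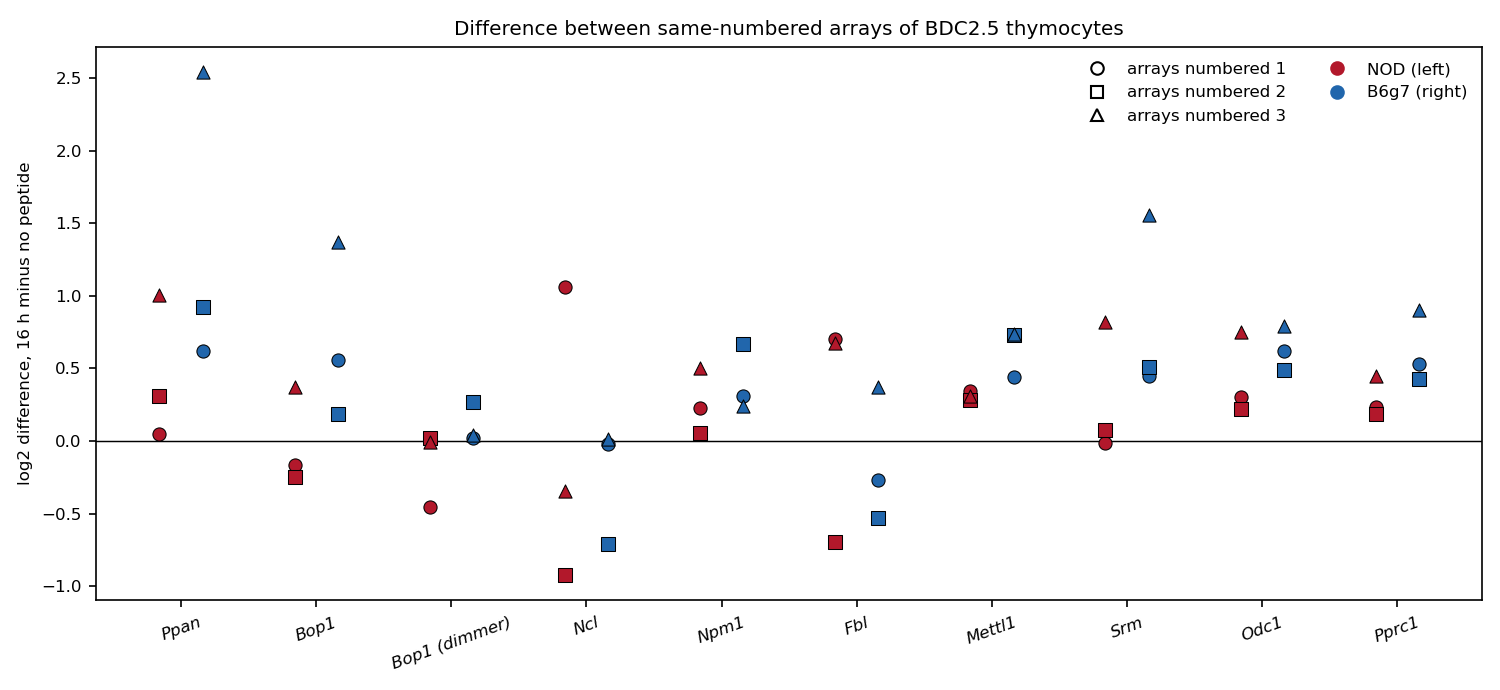
Log2 difference between the array at 16 h of peptide and the array without peptide that carries the same number, for each member probe set, with NOD on the left and B6g7 on the right of each pair of columns. Mettl1, Odc1, Pprc1, Npm1 and Ppan are above 0 in all 6 pairs, and the share of all probe sets that are was not computed. The pair numbered 3 gives the highest B6g7 value for every gene but Npm1, for Bop1 by its brighter probe set only.

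The members fell into sets by how they moved from array to array within a group. On the arrays of higher 5′ signal, Ncl was 1.87 higher on the log2 scale than on the other arrays of its group, a 3.65-fold difference, and it was higher there in 6 of 6 groups. Fbl was higher by 1.43 and Npm1 by 1.23, each in 6 of 6 groups. Ppan went the other way, at -0.75, and was higher there in 1 of 6 groups, namely BDC2.5 B6g7 cells at 16 h. Bop1 likewise was at -0.43, and Srm at -0.19. Odc1 was at 0.26, Pprc1 at 0.04 and Mettl1 at -0.02.

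In the BDC2.5 pairs numbered 3, the response of Ppan was 1.01 in NOD and 2.54 in B6g7, while the pairs numbered 1 and 2 gave 0.05 and 0.31 in NOD and 0.62 and 0.92 in B6g7. Srm had the same order, with 0.82 in NOD and 1.56 in B6g7 for the pairs numbered 3, and values from -0.01 to 0.51 for the other 4 pairs. The Bop1 pairs numbered 3 gave 0.37 in NOD and 1.37 in B6g7, with -0.25 to 0.56 for the others. The size of these 3 responses thus rests in part on the arrays of higher 5′ signal. Odc1 and Pprc1 were also highest in the pairs numbered 3, at 0.75 and 0.45 in NOD and 0.79 and 0.90 in B6g7. Their other pairs gave 0.19 to 0.62. The part of RNA quality in these responses was not tested.

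Correlations over the 16 arrays describe the same sets, and they share the arrays' RNA quality and, within a group, its condition. Ppan and Bop1 had a Pearson r of 0.955, and 0.953 for deviations from the group means. Ncl and Fbl had 0.924 and 0.967, and Ncl and Npm1 0.794 and 0.877. Mettl1 and Pprc1 had 0.858 over the arrays and 0.534 within groups, so that part of their likeness lay in the group means. Ncl and Ppan ran against each other, with -0.532 and -0.724. The deviation of beta-actin's 3′ minus 5′ difference within groups had an r of -0.947 with Ncl, -0.944 with Fbl and -0.886 with Npm1, of -0.684 with Odc1 and -0.34 with Pprc1, of 0.721 with Ppan, 0.666 with Bop1 and 0.364 with Srm, and of -0.082 with Mettl1.

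**Figure D4:**
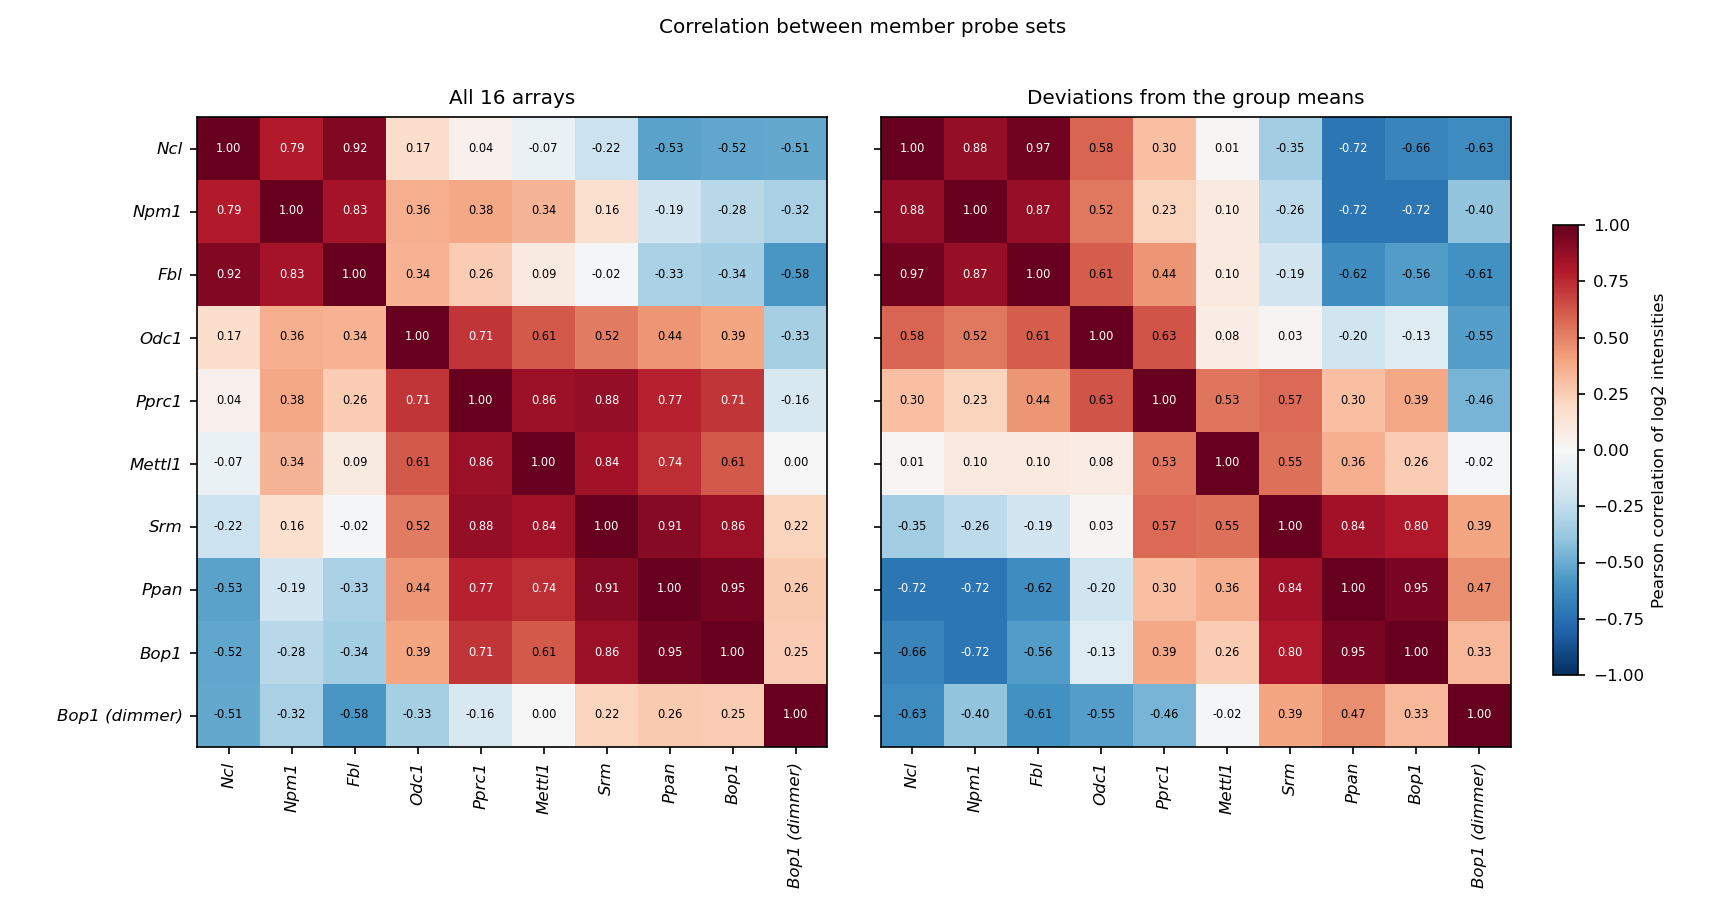
Pearson correlation of log2 intensities between member probe sets over all 16 arrays (left) and of deviations from the 6 group means (right). Ncl, Npm1 and Fbl form 1 block and Ppan, Bop1 and Srm another, with negative values between Ncl and Ppan (-0.53 and -0.72).

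Among 8242 genes outside the list, 6 are named as closest to the members' mean profile over the 16 arrays. The profile is the mean over the members of each gene's log2 value minus its mean over the arrays. It was highest on the B6g7 array at 16 h numbered 3, at 1.03, and next on the NOD array at 16 h numbered 3, at 0.40, so likeness to it leans on those arrays. Rrp1b, a nucleolar protein, had an r of 0.974, and Nfatc1, a transcription factor activated by calcium and calcineurin after antigen receptor signals, had 0.957. Rcl1, which acts in small-subunit RNA processing, had 0.938, the ATPase Spata5 0.934, the D-type cyclin Ccnd2 0.926 and the nucleolar GTPase Gnl3 0.920. The mean peptide responses of these genes ran from 0.30 for Rcl1 to 1.32 for Ccnd2, and none passed (limma adjusted p from 0.554 to 0.998).

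Lists of related genes that hold none of the members were set beside them. These lists, like the members, were chosen with earlier results of these data known. Of 125 named genes of precursor RNA processing and ribosome assembly, 73 were measured, and 57 of these had a higher mean with peptide in NOD and 58 in B6g7. The median response was 0.10 in NOD and 0.29 in B6g7. Limma called 0 of them in either strain. At an unadjusted p under 0.05 there was 1 in NOD, which was higher, where 207 of the 12422 probe sets of the array reached that level. In B6g7 there were 17 higher and 1 lower, where 422 probe sets of the array did. In the mean of both strains 64 of 73 were above 0, with a median of 0.19. There 14 higher genes and 1 lower gene had an unadjusted p under 0.05, as did 445 probe sets of the array. Without the arrays of higher 5′ signal the count above 0 was 40 of 73 in NOD, with a median of 0.01, and 54 of 73 in B6g7, with a median of 0.15. So the NOD count was near an even split without those arrays, where 43.1% of all probe sets were above 0.

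The 4 genes of this list with the smallest p in the mean response were Pno1, Wdr12, Rrp12 and Nifk, and none passed. Pno1, a factor of small-subunit assembly, had a mean response of 0.61 ± 0.16 (limma adjusted p = 0.554), made of 0.71 ± 0.22 in NOD and 0.51 ± 0.22 in B6g7. Wdr12, which forms a complex with Bop1, was on the other side of 0, at -0.33 ± 0.10. Rrp12 was at 0.37 ± 0.12 and Nifk, a nucleolar partner of the Ki-67 protein, at 0.45 ± 0.15 (limma adjusted p = 0.998 for these 3). In the strain difference at 16 h, 55 of the 73 genes were lower in NOD, with a median of -0.19, and 48 of 73 without the arrays of higher 5′ signal, with a median of -0.06.

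Of 23 genes of the RNA polymerase I machinery, 17 were measured, and 14 were above 0 in NOD and 14 in B6g7, with medians of 0.17 and 0.28. Limma called 0, with 1 in NOD and 4 in B6g7 at an unadjusted p under 0.05, all of them higher. On the array 207 and 422 probe sets reached that level. Without the arrays of higher 5′ signal 12 were above 0 in NOD and 15 in B6g7, with medians of 0.08 and 0.215. The median of the mean response was 0.14 without those arrays. The 4 with the smallest p in the mean response were Taf1d, of the polymerase's selectivity factor, at 0.45 ± 0.15, the second-largest subunit Polr1b at 0.47 ± 0.17, Polr2e, a subunit that the nuclear RNA polymerases share, at 0.52 ± 0.20 and Polr1e at 0.36 ± 0.14.

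The other lists were nearer to the array as a whole. Of 18 genes of polyamine metabolism 9 were measured, with 6 above 0 in NOD and 6 in B6g7 and medians of 0.03 and 0.08. Arginase 1 (Arg1), which makes ornithine, stood out, at 0.19 ± 0.56 in NOD and 1.79 ± 0.56 in B6g7 (limma adjusted p = 1 for both), with a strain difference at 16 h of -2.46 ± 0.56 (limma adjusted p = 0.106). Arg1 is also a gene of macrophages. Of 31 genes of tRNA and RNA modification 10 were measured, with 6 above 0 in NOD and 7 in B6g7 and medians of 0.01 and 0.02. Mettl3, Pus1, Dus1l and Nsun2 had the smallest p, with mean responses from 0.10 to 0.19. Limma called 0 genes of these lists. At an unadjusted p under 0.05 there was 1 gene of polyamine metabolism, Arg1 in B6g7, where 422 probe sets of the array reached that level.

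The list that holds partners of Pprc1 was close to the array as a whole. Of 16 mitochondrial coactivators and their partners 12 were measured, with 3 above 0 in NOD and 6 in B6g7 and medians of -0.04 and -0.02. Tfb2m was at 0.20 ± 0.10 in the mean response, Gabpb1 at -0.16 ± 0.09, Yy1 at -0.19 ± 0.12 and Tfam at 0.08 ± 0.05. Of 11 genes of MYC and its partners 10 were measured, with 4 above 0 in NOD and 3 in B6g7 and medians of -0.06 and -0.09. Myc itself was at 0.38 ± 0.27 in NOD and 0.80 ± 0.27 in B6g7 (limma adjusted p = 1 for both). Its probe set was dim, with a mean intensity of 17.3. Mxi1, a repressor that competes with MYC for MAX, was at -0.38 ± 0.24 in the mean response, and Mnt and Mycl were at 0.12 ± 0.08 and -0.12 ± 0.10. Limma called 0 genes of either list. At an unadjusted p under 0.05 there was 1 coactivator gene in NOD, which was lower. In B6g7 there were 2 coactivator genes and 1 gene of the MYC list, all of them higher. On the array 207 probe sets in NOD and 422 in B6g7 reached that level.

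**Figure D5:**
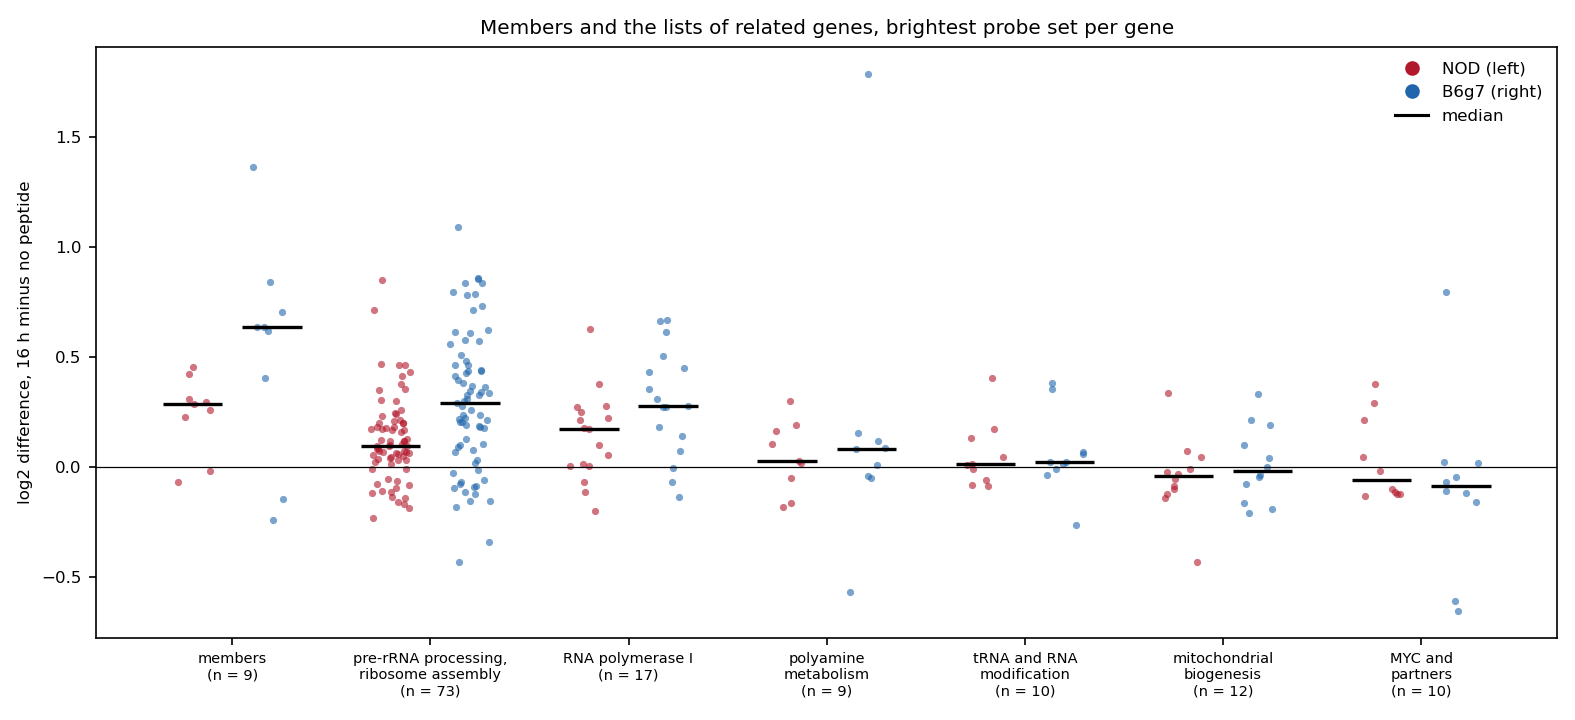
Log2 peptide response of the 9 members and of the genes of 6 related lists, 1 brightest probe set per gene, in NOD (left of each pair) and B6g7 (right), with the median as a bar. The members have the highest medians, 0.29 in NOD and 0.64 in B6g7, followed by precursor RNA processing and RNA polymerase I, and the other 4 lists lie close to 0. Without the arrays of higher 5′ signal, not drawn here, the members' medians were 0.14 in NOD and 0.48 in B6g7. Members and lists were chosen with earlier results of these data known, so this order is a description and not a test.

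Markers of other cells moved with some of these values. The summed intensity of 12 myeloid and dendritic markers was 555.6 to 599.9 in NOD cells at 16 h of peptide and 562.8 to 662.1 without it. In B6g7 it was 694.5 to 729.1 at 16 h and 566.5 to 665.1 without peptide. These B6g7 groups did not overlap, and at 16 h all NOD sums lay below all B6g7 sums, as for 5 of the members. The complement genes C1qa, C1qb and C1qc had median intensities of 81.2, 31.4 and 103, Lyz2 of 23.6 and Csf1r of 39.5. The lowest intensity of any probe set tested was 7.77, so a reading above 0 does not show that these cells were present. Of the 12 markers, 3 in NOD and 8 in B6g7 were above 0 in the peptide response and 10 were lower in NOD at 16 h. Limma called 0 of them. At an unadjusted p under 0.05 there were 1 (lower), 3 (higher) and 5 (lower) in these comparisons, where 207, 422 and 705 probe sets of the array reached that level. Their part in the members' differences was not tested.

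The sum of 8 double-positive thymocyte markers was 6236 to 7841 in NOD cells at 16 h and 7107 to 12490 without peptide. In B6g7 it was 5411 to 9104 at 16 h and 9918 to 11060 without peptide, with no overlap. The 15 measured markers of proliferating cells summed to 6948 to 7991 in NOD at 16 h and 7727 to 10100 without peptide, and to 7237 to 8106 in B6g7 at 16 h and 7939 to 11200 without peptide. Of these 15 genes, 12 were below 0 in the peptide response of each strain, while 7 of the 9 members were above it. In the strain difference at 16 h, 7 of the 8 double-positive markers were higher in NOD, with a median of 0.38, and limma called 1 of them, Cd8b1, lower in NOD by -2.02 ± 0.36 (limma adjusted p = 0.0247), which is named here after its value was seen. Of the 15 proliferation markers, 11 were lower in NOD there, with a median of -0.09, and limma called 0. At an unadjusted p under 0.05 there was 1 of them, where 705 probe sets of the array reached that level. The sums of B cell, thymic epithelial, mesenchymal and erythroid markers overlapped between 16 h of peptide and no peptide within each strain. Between the strains at 16 h those of 7 thymic epithelial markers did not overlap, at 270.7 to 282.7 in NOD and 261.8 to 270.2 in B6g7. The part of these cell types in the members' differences was not tested.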

How the data were processed

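Total RNA of the thymocytes had been hybridised to 16 Affymetrix arrays. The intensity of each probe set was deposited by the authors on a linear scale, from 7.77 to 13168 over the probe sets tested, with array medians from 54.7 to 59.1. No rescaling was done. Whether and how they scaled the arrays, corrected background and summarised probes was not given in the sources used here. Of 12488 probe sets, 66 controls were left out. Among the 12422 tested, 10833 named 1 gene, 396 several and 1193 none in the platform annotation. Every column of values was mapped to a sample.

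Intensities were taken to log2 with no pseudocount. One mean per group was fitted to all 16 arrays with limma 3.58.1 under R 4.3.3, using lmFit and contrasts.fit and then eBayes with its intensity trend, with 10 residual and 3.60 prior degrees of freedom. Tests were two-sided, with Benjamini-Hochberg adjustment over all 12422 probe sets within each of 9 comparisons and a threshold of 0.05. The fit was tested on simulated data. Values after ± are standard errors for differences and standard deviations for means. The number of arrays limits the precision.

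A gene with several probe sets was counted by its brightest. The members and the lists were chosen with earlier results of these data known. The text names all members, up to 4 genes of each list with the smallest p in the mean response, and the 6 genes closest to the members' profile. Motifs were counted in RefSeq promoter windows.

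The deviations of same-numbered BDC2.5 arrays from the means of their groups were correlated across probe sets. The correlation was 0.608, 0.581 and 0.793 between the NOD peptide groups and 0.639, 0.249 and 0.600 between those of B6g7, and between strains it was 0.577, 0.234 and 0.569 at 16 h and 0.777, 0.165 and 0.842 without peptide. The lowest value was 0.165, and these numbers served as pairs for BDC2.5 cells, though no label says that they mark one. Between BDC2.5 cells without peptide and wild-type cells it was 0.678 and -0.499 in NOD and 0.695 and 0.058 in B6g7, so those were not taken as pairs. A block over all 16 arrays ties them too, and its transgene differences are not read as paired.

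Alternatives were quantile normalization, no intensity trend, dim probe sets left out, the replicate block, only the groups compared, each array left out in turn, and the arrays of higher 5′ signal left out.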

Additional observations from a re-analysis of the deposited data

How the results depend on the processing

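The 1 call among the members' differences, Pprc1 lower in NOD at 16 h of peptide, was not kept under 5 of the settings: the number of member probe sets called there was 0 with quantile normalization, with no intensity trend, with dim probe sets left out (Pprc1 is then not tested), without the arrays of higher 5′ signal and with only the groups compared. The limma adjusted p of Pprc1 was 0.0738, 0.062, 0.135 and 0.206 in the 4 of these settings that tested it. With each array left out in turn the number called was 0 to 1. The median strain difference at 16 h over the members ran from -0.765 to -0.31 with an array left out, and that of the difference of responses from -0.521 to -0.202. For the mean peptide response, the number of members called was 2 with the replicate block over all 16 arrays, 1 with the replicate block in the 12 BDC2.5 arrays only, and 0 to 1 with an array left out, where Pprc1 passed without the B6g7 array at 16 h numbered 2 (limma adjusted p = 0.0417) or numbered 3 (0.0412). The replicate block changed no other call among the members. The median strain difference in wild-type cells was -0.25 without the arrays of higher 5′ signal, which leaves 1 wild-type array per strain. Of 1224 recomputed member differences 107 changed sign, and 3 did so from a value at or above its standard error: the NOD response of Ppan (-0.018 to 0.73 with an array left out), the B6g7 transgene difference of Mettl1 (-0.365 to 0.068 with an array left out) and the NOD transgene difference of Odc1, which was 0.02 without the arrays of higher 5′ signal and again rests on 1 wild-type array. The cause was not tested. The counts of listed genes without the arrays of higher 5′ signal were chosen after seeing the data. Spread between the arrays of a group limits what the fit without the block shows of Ncl, Npm1 and Fbl, and low signal limits Pprc1 and Myc.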
